A study of Homo sapiens with 6 samples.

Results

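The genes described here are the nuclear subunit genes of the respiratory chain and of ATP synthase, the machinery of oxidative phosphorylation in the inner mitochondrial membrane. They were chosen by name: NDUFA, NDUFB, NDUFC, NDUFS and NDUFV genes with a number, SDHA to SDHD, UQCR genes, COX4 to COX8 forms and ATP5 forms, without assembly factors and pseudogenes. The rule found 80 of the 17211 listed genes, and all 80 entered the test. They were 36 genes of complex I, 4 of complex II, 9 of complex III, 13 of complex IV and 18 of ATP synthase. A further 7 symbols of the same forms, ATP5MGL, COX4I2, COX6A2, COX6B2, COX7A1, COX7B2 and COX8C, were not analysed here.

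Complexes I and II pass electrons from NADH and succinate to coenzyme Q, complex III passes them to cytochrome c, and complex IV passes them to oxygen. Complexes I, III and IV pump protons as they do so, and ATP synthase uses the return of those protons to make ATP. Complexes I, III, IV and ATP synthase join nuclear subunits to subunits made from mitochondrial DNA, whereas every subunit of complex II is nuclear. Nuclear respiratory factor 1 (NRF1), the ETS factor GABP and YY1 are known activators of many of the nuclear genes.

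The RNA came from cultured CAOV2 cells, labelled a human ovarian cancer cell line in some fields and primary cancer cells in the titles, and was sequenced after poly(A) selection. The siYAP group (3 libraries) received an siRNA reagent against YAP, the transcriptional co-activator encoded by YAP1, and the siNT group (3 libraries) a non-targeting siRNA, each at 100 pmol. Transfection with a lipid carrier lasted 2 days, and cells were taken at day 3. Each siRNA had its own supplier, so the loss of YAP and the choice of product cannot be told apart, and CAOV2 is a single line. The titles call the libraries biological replicates without naming separate passages or days, so the tests weigh each difference against a spread among libraries that may be technical.

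YAP1 had 278, 327 and 294 normalized counts in siYAP cells, against 6221, 5801 and 5955 in siNT cells, or 5% of the siNT mean (limma, log2 fold change -4.32 ± 0.06 SE, adjusted p = 1e-22). The whole reads behind the values summed to between 25478595 and 31790340 per library. Of the epithelial markers, all 7 were measured, with a summed level of 79235 to 85855 normalized counts in siYAP cells and 103048 to 111940 in siNT cells. They went both ways, with EPCAM and CDH1 higher (log2 0.74 and 0.93), KRT7, KRT18 and KRT19 lower (log2 -0.97, -0.68 and -0.29), and KRT8 and CLDN4 not passing. Of the ovarian carcinoma markers 6 of 8 were measured, summing to 1332 to 1387 in siYAP cells and 1370 to 1426 in siNT cells. They too went both ways, with 1 higher, 1 lower and 4 not passing (log2 -0.94 to 1.185). PAX8, MUC16, MSLN and FOLR1 among them stayed under 45 counts in every library. Fibroblast markers (6 of 7) summed to 14299 to 14804 in siYAP cells and 5609 to 6399 in siNT cells. LUM and COL3A1 made up most of that sum, with means of 9819 and 3060 in siYAP cells and 3797 and 661 in siNT cells. PDGFRA and PDGFRB were also higher (log2 0.26 and 0.99), COL1A1 was lower (log2 -0.21), and COL1A2 had 0.951 to 1.81 in siYAP cells and 10.7 to 15.7 in siNT cells. Immune markers (4 of 6) summed to 143 to 160 in siYAP cells and 198 to 214 in siNT cells, with 3 lower and 1 higher (log2 -1.59 to 0.45). The 1 endothelial marker measured of 5, ESAM, had 1261 to 1338 in siYAP cells and 1673 to 1873 in siNT cells. The part of these marker differences in the results below was not tested. In bulk RNA, fewer cells of a type and less RNA per cell cannot be told apart.

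The promoters of 4 members with some of the largest differences are shown because they differ in the activator motifs they hold. Each runs 5′ to 3′ on the gene's strand over the 250 bases before and the 50 bases after the RefSeq start on GRCh38.p14. Capitals mark matches, on either strand, to the NRF1 motif GCGCATGC or the ETS motif CCGGAAG. SDHD (chr11:112086623-112086922, plus strand) and NDUFS6 (chr5:1801157-1801456, plus strand) hold NRF1 matches, overlapping on both strands in SDHD, which also holds an ETS match. UQCR11 (chr19:1605413-1605712, minus strand) holds ETS matches alone, and COX7A2L (chr2:42361168-42361467, minus strand) holds no match to either. The promoters of NDUFA4L2, ATP5PO, ATP5IF1, NDUFV3 and ATP5MC1, which were also among the larger falls in siYAP cells, hold no match to either. The 4 printed promoters therefore do not stand for the lower or higher members as a whole.
SDHD: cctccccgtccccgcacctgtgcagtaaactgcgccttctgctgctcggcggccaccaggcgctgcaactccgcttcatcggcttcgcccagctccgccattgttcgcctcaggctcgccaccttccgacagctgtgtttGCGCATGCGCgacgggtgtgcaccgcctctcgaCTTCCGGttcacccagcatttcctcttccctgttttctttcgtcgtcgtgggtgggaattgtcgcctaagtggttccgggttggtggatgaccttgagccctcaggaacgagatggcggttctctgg
NDUFS6: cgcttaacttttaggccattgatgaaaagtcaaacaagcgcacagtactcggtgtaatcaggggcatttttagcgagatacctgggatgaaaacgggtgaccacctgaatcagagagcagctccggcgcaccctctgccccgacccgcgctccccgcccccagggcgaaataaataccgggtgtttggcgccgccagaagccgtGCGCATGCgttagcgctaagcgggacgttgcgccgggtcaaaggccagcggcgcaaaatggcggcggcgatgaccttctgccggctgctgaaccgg
UQCR11: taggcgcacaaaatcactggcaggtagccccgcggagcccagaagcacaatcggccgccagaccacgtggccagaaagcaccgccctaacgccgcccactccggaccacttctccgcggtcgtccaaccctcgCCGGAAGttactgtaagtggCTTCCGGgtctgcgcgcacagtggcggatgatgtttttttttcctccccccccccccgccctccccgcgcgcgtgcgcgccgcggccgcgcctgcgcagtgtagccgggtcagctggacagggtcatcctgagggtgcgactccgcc
COX7A2L: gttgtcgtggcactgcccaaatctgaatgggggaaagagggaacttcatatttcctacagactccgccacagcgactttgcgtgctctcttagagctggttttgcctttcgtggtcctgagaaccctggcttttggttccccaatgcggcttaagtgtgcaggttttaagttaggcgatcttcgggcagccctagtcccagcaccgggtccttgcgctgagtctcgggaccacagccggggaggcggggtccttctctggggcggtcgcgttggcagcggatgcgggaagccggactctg

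Most of the 80 subunit genes differed little between the groups, and those that did were more often lower in siYAP cells. With limma on log2(normalized count + 1) and Benjamini-Hochberg adjustment over 17200 genes, 48 of the 80 passed an adjusted p of 0.05, or 60%, against 56.8% of all tested genes. Of these, 35 were lower, or 43.8% against 28.1% of all genes, and 13 were higher, or 16.2% against 28.6%. The size of the differences was small: 61 of the 80 differed by less than 0.25 on the log2 scale, 30 of the called genes among them. Only 5 of the 80 were called with a log2 difference of at least 0.5, or 6.25% against 24.6% of all genes. Those were NDUFA4L2, SDHD, ATP5PO and UQCR11, which were lower in siYAP cells, and COX7A2L, which was higher. In GENCODE 29 on GRCh38, NDUFA4L2 (ENSG00000185633) lies at chr12:57234903-57240715 on the minus strand and SDHD (ENSG00000204370) at chr11:112086773-112120013 on the plus strand. ATP5PO (ENSG00000241837) lies at chr21:33903453-33915980, UQCR11 (ENSG00000127540) at chr19:1597172-1605490 and COX7A2L (ENSG00000115944) at chr2:42333546-42425088, all on the minus strand. The median log2 fold change was -0.09 over the members and 0.0036 over all tested genes. The siYAP and siNT libraries did not overlap in 50 of the 80, or 62.5%, against 61.5% of all tested genes.

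**Figure D1:**
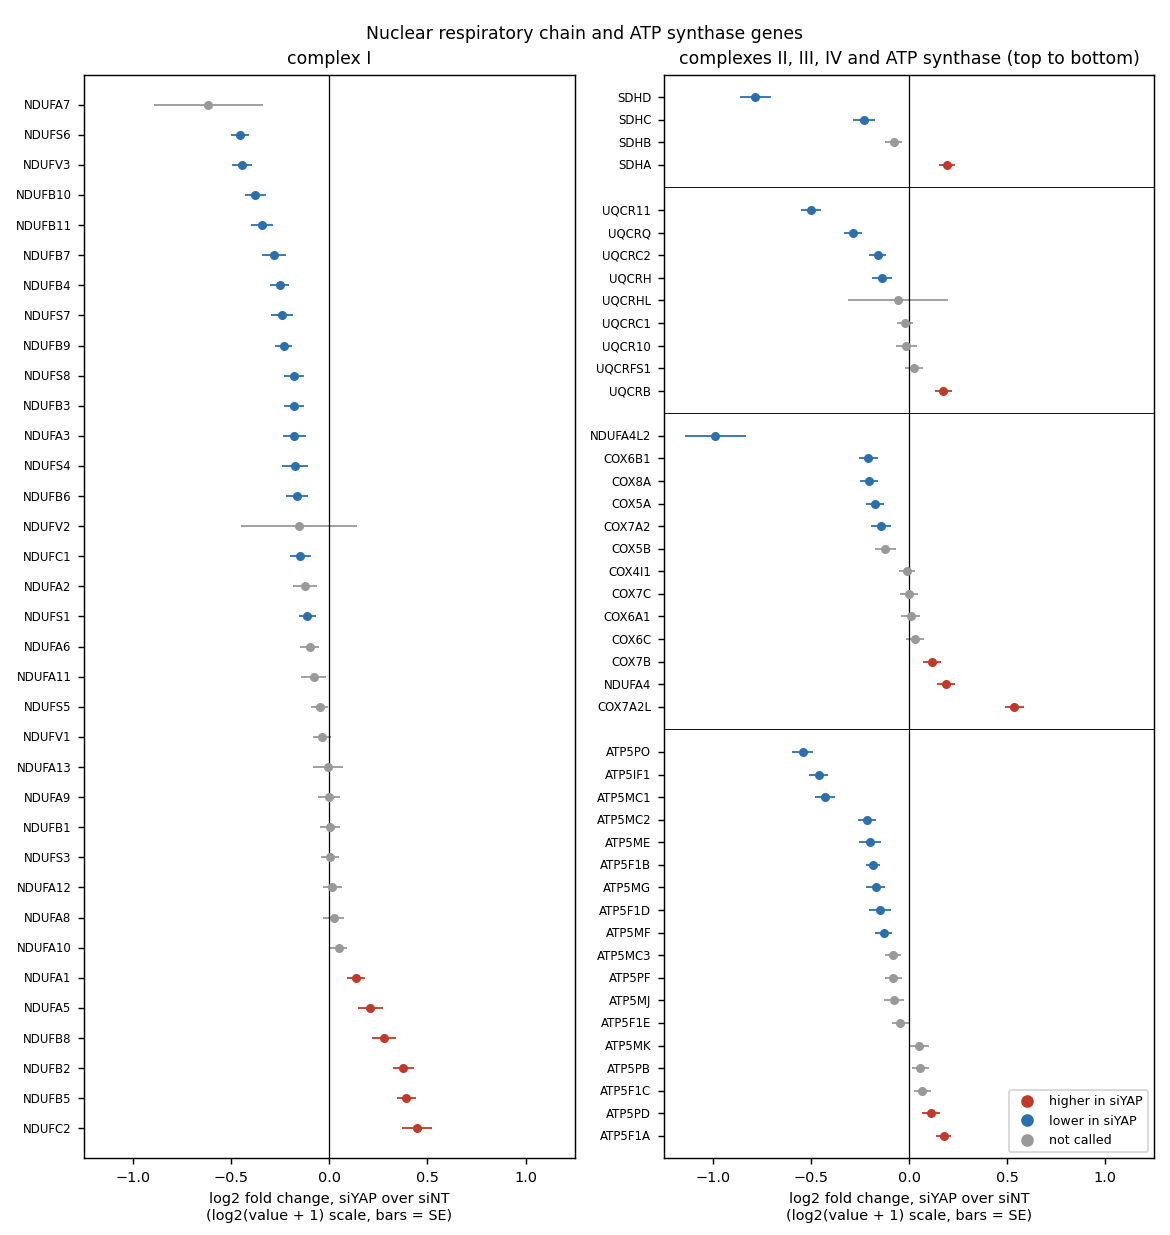
The log2 fold change (siYAP over siNT, limma on log2(normalized count + 1)) is plotted for 79 of the 80 subunit genes, grouped by complex, with bars of 1 SE and colour by call. Most points lie within 0.25 of 0, with NDUFA4L2 at -0.99 and SDHD at -0.78 at the low end and COX7A2L at 0.54 at the high end.

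How many were called lower depended on the scaling between libraries. The deposited size factors left the summed normalized counts of all listed genes at 94.1% of the siNT mean in siYAP cells. With each library set to an equal total instead, 20 members were called lower and 19 higher, so that 48.7% of called members were higher, against 27.1% as deposited. Over all tested genes the higher share of calls was 62.1% with equal totals and 50.4% as deposited. The median over the members was then -0.0044 and that over all genes 0.09. The 20 lower calls and 13 of the 19 higher calls were among those made as deposited, and no member was called in opposite directions by any of the 16 alternative settings. The 15 lower calls lost with equal totals were those of ATP5F1D, ATP5ME, ATP5MF, ATP5MG, COX5A, COX7A2, NDUFA3, NDUFB3, NDUFB6, NDUFC1, NDUFS1, NDUFS4, NDUFS8, UQCRC2 and UQCRH. Without the trend and robust fitting limma also lost NDUFB7, NDUFS7 and COX6B1.

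**Figure D2:**
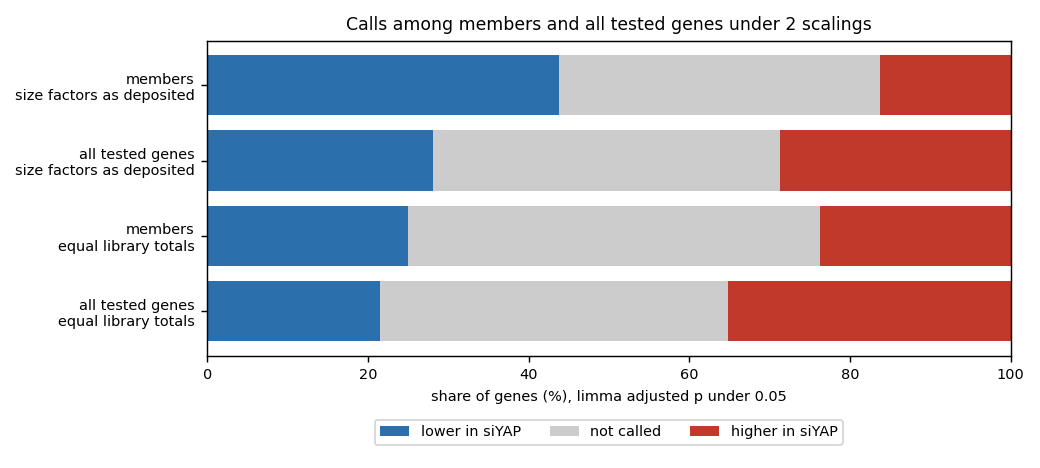
Stacked bars give the percent of genes called lower, not called and called higher in siYAP cells, for the subunit genes and for all tested genes, under the deposited size factors and under equal library totals. The share of subunit genes called lower is 43.8% as deposited and 25% with equal totals.

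Summed over each complex, the differences were a few percent. All 80 genes together had 342187, 331438 and 324385 normalized counts in the siYAP libraries, against 346883, 355384 and 351743 in the siNT libraries. Every siYAP sum lay below every siNT sum, and the siYAP mean was 94.7% of the siNT mean, close to the 94.1% of all listed genes. As a share of all normalized counts the members took 1.188%, 1.157% and 1.129% in siYAP cells and 1.145%, 1.165% and 1.142% in siNT cells, and these ranges overlapped. Complex I stood at 93.4% of its siNT mean, complex III at 96.1% and ATP synthase at 93%, each with no overlap between groups. Complex IV stood at 98.1% with overlapping libraries, and complex II at 103% with every siYAP sum above every siNT sum. Abundant transcripts weigh most in these sums, so SDHA sets much of the value of complex II.

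**Figure D3:**
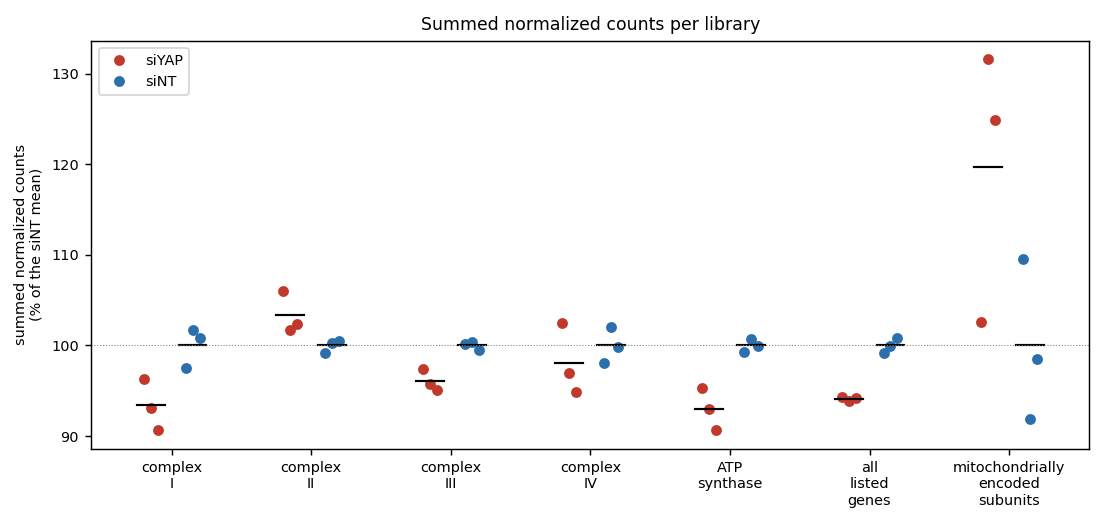
Each point is 1 library's summed normalized count as a percent of the siNT mean, with siYAP left of siNT, for each complex, all listed genes and the mitochondrially encoded subunits. Complex I and ATP synthase lie near 93% in siYAP cells and complex II near 103%, while the mitochondrially encoded sums are spread widely and overlap.

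Within the siYAP group the libraries were not level. Replicate 1 was the highest of its group in 55 of the 80 members and replicate 3 the lowest in 49. The members' median deviation from the group mean was 0.041 on the log2 scale in siYAP replicate 1 and -0.036 in siYAP replicate 3, whereas over all tested genes it stayed within 0.006. Leaving out each library in turn gave 27 to 36 members lower and 9 to 14 higher. Over all tested genes it gave about 4380 to 4880 lower and 4380 to 4950 higher, where all 6 libraries gave 4841 and 4926.

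Complex II, which feeds electrons from succinate into coenzyme Q, held calls in both directions, with 2 genes lower, 1 higher and 1 not passing. That is 75% of only 4 genes, against 56.8% of all tested genes (28.1% lower and 28.6% higher). SDHD, a membrane anchor subunit, had 346, 380 and 441 normalized counts in siYAP cells, against 693, 667 and 643 in siNT cells. All siYAP values lay well below the siNT values, at 58.3% of the siNT mean (log2 fold change -0.78 ± 0.08 SE, adjusted p = 2.74e-08). SDHC, the other membrane anchor, had 1027, 947 and 1070 in siYAP cells, against 1207, 1190 and 1167 in siNT cells, again without overlap (log2 -0.23, adjusted p = 0.00163). SDHB, the iron-sulfur subunit, had 3527, 3380 and 3448 in siYAP cells, against 3606, 3598 and 3736 in siNT cells, and did not pass the test (log2 -0.08, adjusted p = 0.132). SDHA, the flavoprotein that oxidises succinate, was higher, with 8960, 8595 and 8429 in siYAP cells, against 7466, 7662 and 7600 in siNT cells (log2 0.19, adjusted p = 0.000395). SDHD made up 2.88% ± 0.4 of the complex II counts in siYAP cells and 5.11% ± 0.227 in siNT cells (SD, n = 3 each). The SDHD promoter printed above lies beside TIMM8B, a gene on the other strand that overlaps SDHD and was also lower (log2 -0.17). The assembly factor SDHAF1, which helps mature the iron-sulfur subunit, fell too, with 335, 375 and 356 in siYAP cells and 493, 595 and 632 in siNT cells (log2 -0.68, adjusted p = 5.32e-07).

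**Figure D4:**
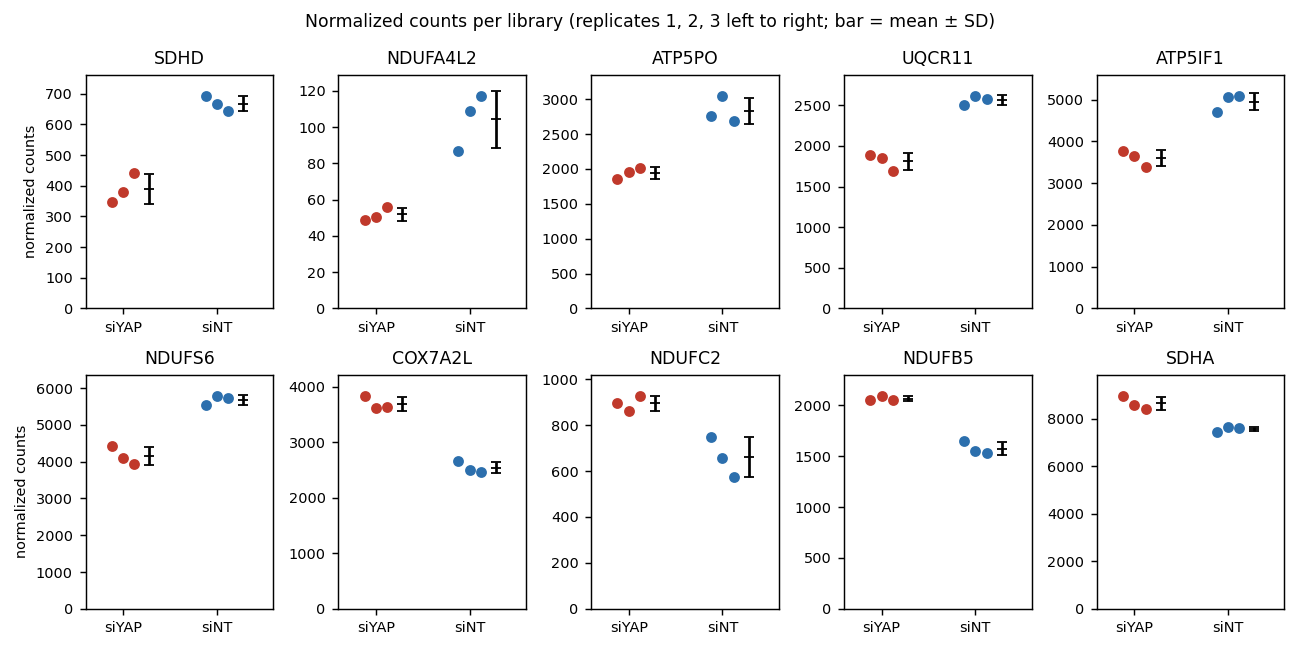
Normalized counts per library are plotted for 10 subunit genes, siYAP left of siNT, with the mean and SD of 3 libraries as a bar. SDHD, NDUFA4L2, ATP5PO, UQCR11, ATP5IF1 and NDUFS6 are lower in every siYAP library, and COX7A2L, NDUFC2, NDUFB5 and SDHA are higher in every siYAP library.

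In complex I, the NADH dehydrogenase, 15 of 36 genes were lower, 6 were higher and 15 did not pass, with a median log2 fold change of -0.11. The called share was 58.3%, near the 56.8% of all tested genes (28.1% lower and 28.6% higher). Among the 7 genes of the catalytic core, 3 were lower and none was higher, or 42.9% called, against 56.8% of all tested genes. The lower 3 were NDUFS7 and NDUFS8, which carry iron-sulfur clusters, and NDUFS1, which carries iron-sulfur clusters of the NADH arm. NDUFS7 had 3720, 3545 and 3233 normalized counts in siYAP cells, against 3793, 4338 and 4269 in siNT cells (log2 -0.24, adjusted p = 0.000944). NDUFS8 was at 88.2% of the siNT mean (log2 -0.18, adjusted p = 0.00465). NDUFS1 was at 92.5% (log2 -0.11, adjusted p = 0.038), and that call was lost without any one of 5 of the 6 libraries (siNT replicates 1, 2 and 3, siYAP replicates 2 and 3; adjusted p 0.0546 to 0.191). NDUFV1, which binds NADH and FMN, and NDUFS3, of the arm that leads to the coenzyme Q site, did not pass, with log2 differences of -0.04 and 0.00. NDUFV2 had only 10.9 to 15.8 counts in siYAP cells and 15 to 15.7 in siNT cells, below the 59 to 85.2 and 74.3 to 97.3 of its pseudogene NDUFV2P1 in those groups, so its reads may be split between copies.

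Among the accessory subunits, 12 of 29 were lower, 6 were higher and 11 did not pass, or 62.1% called, against 56.8% of all tested genes. NDUFS6, a zinc-binding subunit of the NADH arm, had 4426, 4094 and 3941 normalized counts in siYAP cells, against 5532, 5786 and 5747 in siNT cells. The groups were far apart, at 73% of the siNT mean (log2 -0.46 ± 0.05 SE, adjusted p = 3.3e-08). NDUFV3, also of the NADH arm, had 1235, 1179 and 1171 in siYAP cells, against 1583, 1648 and 1657 in siNT cells (log2 -0.45, adjusted p = 1.4e-07). The NDUFB genes, which encode subunits of the membrane arm, moved both ways, with 7 of 11 lower, 3 higher and only NDUFB1 not passing. NDUFB10 and NDUFB11 fell by 0.38 and 0.35 on the log2 scale (adjusted p = 2.84e-06 and 1.78e-05). NDUFB5 was higher, with 2057, 2090 and 2052 in siYAP cells, against 1646, 1551 and 1527 in siNT cells (log2 0.39, adjusted p = 5.09e-07), as was NDUFB8 (log2 0.28, adjusted p = 0.000355). NDUFB2 was higher too (log2 0.38, adjusted p = 3.46e-06). It overlaps BRAF on the other strand and ADCK2 on the same strand, themselves higher by 0.44 and 0.21. NDUFC2, a membrane arm subunit, had 897, 861 and 926 in siYAP cells, against 750, 656 and 575 in siNT cells, without overlap (log2 0.45, adjusted p = 3.22e-05). Of the 12 NDUFA genes of complex I 9 did not pass, so that 25% were called, against 90.9% of the NDUFB genes and 56.8% of all tested genes. NDUFA4 and NDUFA4L2, both called, are counted with complex IV and are not among the 12. The difference between these name families was not tested. NDUFA genes that did not pass included NDUFA9 at 99.9%, NDUFA13 at 99.5% and NDUFA12 at 101% of their siNT means. NDUFA7 was near the floor, at 11.4 to 15.4 counts in siYAP cells and 18.1 to 26.2 in siNT cells, and overlaps RPS28 on the other strand (log2 -0.45). The calls of NDUFA1, NDUFA3, NDUFA5, NDUFB6, NDUFC1 and NDUFS4 were each lost without at least 1 library, with adjusted p of 0.0515 to 0.128.

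In complex III, which passes electrons from coenzyme Q to cytochrome c, 4 of 9 genes were lower, 1 was higher and 4 did not pass. The called share was 55.6%, near the 56.8% of all tested genes (28.1% lower and 28.6% higher). UQCR11, a small subunit, had 1889, 1854 and 1693 normalized counts in siYAP cells, against 2500, 2616 and 2572 in siNT cells. No library of the groups overlapped, and siYAP cells were at 70.7% of the siNT mean (log2 -0.50 ± 0.05 SE, adjusted p = 2.26e-08). UQCRQ, another small subunit, fell by 0.29 on the log2 scale (adjusted p = 1.25e-05) and overlaps GDF9, a gene with 12.7 to 15.2 counts in siYAP cells and 22 to 32.6 in siNT cells (log2 -0.91). UQCRC2, a core protein, fell by 0.16 (adjusted p = 0.00236). UQCRH, the hinge protein, fell by 0.14 (adjusted p = 0.0213), which was lost without siNT replicate 1 (adjusted p = 0.0946) or siYAP replicate 2 (adjusted p = 0.0822). UQCRB, a coenzyme Q binding subunit, was higher, with 10458, 10566 and 10721 in siYAP cells, against 9883, 9274 and 9014 in siNT cells (log2 0.17, adjusted p = 0.00145). The Rieske iron-sulfur protein UQCRFS1 and the core protein UQCRC1 did not pass (log2 0.03 and -0.02). UQCRHL, a near-identical copy of UQCRH, had 18.8 to 31.7 counts in siYAP cells and 19.9 to 27.8 in siNT cells, and reads of the pair may be split.

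In complex IV, cytochrome c oxidase, 5 of 13 genes were lower, 3 were higher and 5 did not pass. The called share was 61.5%, near the 56.8% of all tested genes (28.1% lower and 28.6% higher). The pair of NDUFA4 and NDUFA4L2 diverged. NDUFA4 is a complex IV subunit despite its name, and NDUFA4L2 is its paralogue, known to be induced by hypoxia. NDUFA4L2 had 48.9, 50.3 and 56.1 normalized counts in siYAP cells, against 86.9, 109 and 117 in siNT cells, at 49.6% of the siNT mean (log2 -0.99 ± 0.15 SE, adjusted p = 1.06e-05). It is the lowest in level of the called members, and it overlaps SHMT2 on the other strand, which had 8710 to 9142 in siYAP cells and 10191 to 10771 in siNT cells. NDUFA4 was higher, with 5056, 4807 and 4863 in siYAP cells, against 4403, 4390 and 4127 in siNT cells (log2 0.19, adjusted p = 0.00102). NDUFA4L2 thus stood at 1.06% ± 0.0933 of the NDUFA4 count in siYAP cells and 2.43% ± 0.436 in siNT cells (SD, n = 3 each).

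COX7A2L, known as a factor that joins complexes III and IV into supercomplexes, showed the largest rise among the 80 genes. It had 3833, 3611 and 3630 normalized counts in siYAP cells, against 2654, 2505 and 2474 in siNT cells. The lowest siYAP library was far above the highest siNT library (log2 0.54 ± 0.05 SE, adjusted p = 2.29e-09). Its relative COX7A2, a regular subunit, was slightly lower (log2 -0.14, adjusted p = 0.0225), a call lost without siNT replicate 2, siYAP replicate 2 or siYAP replicate 3 (adjusted p 0.0833 to 0.14). COX7A2L was 131% ± 2.89 of the COX7A2 count in siYAP cells and 82% ± 5.78 in siNT cells (SD, n = 3 each). COX6B1, COX8A and COX5A, which surround the catalytic core, fell by 0.21, 0.21 and 0.18 on the log2 scale (adjusted p = 0.00114, 0.000666 and 0.00269). COX4I1, COX6A1, COX6C and COX7C, further subunits around the core, had log2 differences of -0.01 to 0.03 with overlapping libraries. COX7B rose by 0.12 (adjusted p = 0.0309), which was lost without any one library except siNT replicate 1 (adjusted p 0.0542 to 0.126).

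In ATP synthase, 9 of 18 genes were lower, 2 were higher and 7 did not pass. The called share was 61.1%, near the 56.8% of all tested genes (28.1% lower and 28.6% higher). ATP5PO, the peripheral stalk subunit that confers oligomycin sensitivity, had 1851, 1960 and 2016 normalized counts in siYAP cells, against 2760, 3050 and 2684 in siNT cells. Every siYAP library lay below every siNT library, at 68.6% of the siNT mean (log2 -0.54 ± 0.05 SE, adjusted p = 1.44e-08). It overlaps the noncoding gene LINC00649 on the other strand, which was also lower (log2 -0.51). The other peripheral stalk genes ATP5PB and ATP5PF did not pass, and ATP5PD was slightly higher (log2 0.11, adjusted p = 0.0469), a call lost without any one of siNT replicates 2 and 3 and siYAP replicates 1 and 2 (adjusted p 0.0688 to 0.159). ATP5IF1, the inhibitor that blocks ATP hydrolysis by the enzyme, had 3765, 3644 and 3382 in siYAP cells, against 4708, 5058 and 5089 in siNT cells (log2 -0.46 ± 0.05 SE, adjusted p = 4.39e-08). All its siYAP values were below all siNT values. Overlapping genes did not always move with the member. A gene on the other strand of ATP5IF1 was higher (log2 0.72), and KCTD2, on the other strand of ATP5PD, was lower (log2 -0.35).

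The catalytic hexamer of ATP synthase split. ATP5F1B, the catalytic beta subunit, had 49198, 48478 and 47563 normalized counts in siYAP cells, against 54947, 55188 and 55077 in siNT cells, without overlap (log2 -0.19, adjusted p = 0.000107). ATP5F1A, the alpha subunit, was higher, with 20110, 19684 and 19657 in siYAP cells, against 18060, 17233 and 17296 in siNT cells (log2 0.18, adjusted p = 0.000456). The 3 c-ring genes encode the same mature protein behind different import signals. ATP5MC1 had 1709, 1601 and 1600 in siYAP cells, against 2135, 2189 and 2292 in siNT cells (log2 -0.43, adjusted p = 1.81e-07), and ATP5MC2 fell by 0.22 (adjusted p = 0.000345). ATP5MC3 did not pass (log2 -0.08, adjusted p = 0.0936) and passed without siNT replicate 1 (adjusted p = 0.0324). ATP5MC1 gave 9.78% ± 0.212 of c-ring counts in siYAP cells and 11.7% ± 0.343 in siNT cells (SD, n = 3 each). The membrane accessory subunits ATP5ME, ATP5MF and ATP5MG were lower by 0.13 to 0.20, and ATP5F1D, of the central stalk, by 0.15 with overlapping libraries. The calls of ATP5F1D, ATP5MF and ATP5MG were lost without at least 1 library (adjusted p 0.0685 to 0.158), and ATP synthase then had 1 to 3 genes higher.

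Of the 4 subunits and carriers measured outside the name rule, NDUFAB1, the acyl carrier protein that is also a complex I subunit, was lower. It had 1918, 1888 and 1932 normalized counts in siYAP cells, against 2975, 3197 and 3045 in siNT cells (log2 -0.68 ± 0.05 SE, adjusted p = 4.04e-11). CYCS, cytochrome c itself, was higher (log2 0.23, adjusted p = 8.06e-05), as was DMAC2L, an ATP synthase coupling factor (log2 0.31). CYC1, cytochrome c1, was lower (log2 -0.13, adjusted p = 0.024), which was lost without any one of siNT replicates 2 and 3 and siYAP replicates 2 and 3 (adjusted p 0.0676 to 0.133).

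The assembly factor lists had called shares of 60%, 54.5%, 54.2% and 40% (complex I, complexes II and III, complex IV, ATP synthase), near or below the 56.8% of all tested genes, of which 28.1% were lower and 28.6% higher. Of 15 complex I factors 7 were lower and 2 higher, with NDUFAF8 at 607, 581 and 545 normalized counts in siYAP cells, against 1031, 1162 and 1242 in siNT cells (log2 -0.98, adjusted p = 5.89e-11), and NDUFAF4 at log2 -0.55. Of 11 factors for complexes II and III, 6 were lower and none higher, among them UQCC3 (log2 -0.53), BCS1L, which inserts the Rieske protein (log2 -0.51), and UQCC1 (log2 -0.30). Of 24 complex IV factors 8 were lower and 5 higher, with the mitochondrial RNA-binding protein SLIRP down (log2 -0.37) and COX10 and COX11, which serve heme A and copper insertion, up (log2 0.39 and 0.27). Of 5 ATP synthase factors ATPAF1 was higher (log2 0.41), FMC1 was lower (log2 -0.56) and 3 did not pass.

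Subunits encoded by mitochondrial DNA had a called share of 30.8%, against 56.8% of all tested genes. Of these 13 subunits, 3 were higher, 1 was lower and 9 did not pass. They summed to 628381, 806018 and 764895 normalized counts in siYAP cells, against 671131, 562812 and 603723 in siNT cells, with siYAP replicate 1 inside the siNT range. MT-ND3 and MT-CO2 were higher (log2 0.43 and 0.31, adjusted p = 6.92e-07 and 0.000338). MT-ND5 was higher (log2 0.40, adjusted p = 0.0402), which was lost without siNT replicate 1, siNT replicate 3 or siYAP replicate 3 (adjusted p 0.0611 to 0.137). MT-ND6, the only one encoded on the light strand, was lower, with 3843, 4937 and 5366 in siYAP cells, against 7405, 6614 and 7255 in siNT cells (log2 -0.60, adjusted p = 0.0117, and 0.0847 without siNT replicate 1). The strand setting of the counting is not given, so the MT-ND6 counts may hold reads of the other strand. Among 11 genes of mitochondrial transcription and replication 6 were lower and none higher, or 54.5% called against 56.8% of all tested genes. The lower genes included the mitochondrial RNA polymerase POLRMT (log2 -0.38), the helicase TWNK (log2 -0.30) and TFB1M, which methylates mitochondrial ribosomal RNA (log2 -0.59).

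Of 11 nuclear regulators of mitochondrial genes 7 were lower and 1 was higher, or 72.7% called, against 56.8% of all tested genes (28.1% lower and 28.6% higher). NRF1 had 660, 618 and 622 normalized counts in siYAP cells, against 923, 929 and 930 in siNT cells (log2 -0.55 ± 0.06 SE, adjusted p = 5.45e-08). GABPA and GABPB1, the subunits of GABP, went opposite ways (log2 -0.26 and 0.27). PPARGC1A, a co-activator of mitochondrial genes, had 167 to 180 in siYAP cells and 166 to 181 in siNT cells. The tricarboxylic acid cycle yields the NADH and succinate that the chain oxidises. Among 17 genes listed with it, 7 were higher and 5 lower, or 70.6% called. IDH2 was up (log2 0.65), and DLAT, of the pyruvate dehydrogenase complex that supplies the cycle, was down (log2 -0.48). Of 13 coenzyme Q synthesis genes 2 were higher and 2 lower, or 30.8% called. Of 8 genes of cristae shape 2 were higher and none lower, or 25% called. Both of these shares lay below the 56.8% of all tested genes.

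Promoters in the RefSeq table were matched for 67 of the 80 members and compared with those of 11718 tested genes, on both strands over the same 300 bases. NRF1 matches stood in 19.4% of the member promoters and 5.37% of all promoters, ETS matches in 29.9% and 18.1%, and matches to the YY1 motif AAGATGGC in 16.4% and 5.1%. Matches to the TEAD motif GGAATG stood in 10.4% and 10.9%, and TATAAA in 8.96% and 5.91%. Of the 13 members with an NRF1 match 6 were lower and none higher, while of the 54 without 24 were lower and 10 higher. Of the 20 with an ETS match 10 were lower and 2 higher, while of the 47 without 20 were lower and 8 higher. Of the 11 with a YY1 match 4 were lower and none higher, while of the 56 without 26 were lower and 10 higher. For TEAD, 2 of 7 with a match were lower and 2 higher, against 28 and 8 of the 60 without. Median log2 fold changes with and without a match were -0.12 and -0.10 for NRF1 and ETS, and -0.10 and -0.12 for YY1. Over all tested genes 28.1% were lower and 28.6% higher. These splits were not tested. SDHD and NDUFS6, printed above, are among the lower members with an NRF1 match. A match is a description of the letters and not a shown binding site.

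In the 3′ UTRs, the sequence TTCTTAA was searched along with the sequence GAGAGGA and the sequence GATAAAG. Earlier work on these data had picked these heptamers, so the count is a description. Of 79 members with a 3′ UTR long enough, 20 held at least 1, with 7 lower and 4 higher, and 59 held none, with 27 lower and 9 higher. The median log2 fold change was -0.0012 over the 20 and -0.12 over the 59. Over all tested genes 28.1% were lower and 28.6% higher. The length of the 3′ UTR was not taken into account, and a longer one has more room for a heptamer. Those of the holders SDHC and NDUFS1 have 12907 and 9368 bases. ATP5PO holds one in 73 bases, and UQCRB holds none in 5135. The called genes among the 20 were SDHD, ATP5PO, UQCR11, NDUFV3, SDHC, NDUFB3 and NDUFS1, which were lower, and NDUFC2, NDUFA5, ATP5F1A and COX7B, which were higher.

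The annotation limits some values. Another listed gene overlaps 34 of the 80 members and 49 have a named pseudogene, and the strand setting of the counting is not given in the sources used here. Some overlapping genes moved with their member and others against it. HYCC2, for example, was higher (log2 0.88) on the other strand of NDUFB3, which was lower (log2 -0.18). Of the 46 members that overlap no other listed gene 25 were called, 18 lower and 7 higher, or 54.35%, against 56.8% of all tested genes. UQCR11, COX7A2L, NDUFS6, NDUFV3, NDUFB5 and NDUFC2 are among the 46. Of all 48 called members, 26 kept the same call in all 16 alternative settings, 17 lower and 9 higher.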

How the data were processed

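Poly(A) RNA of 3 siYAP and 3 siNT libraries of CAOV2 cells was sequenced after a stranded library kit, per the labels' protocols. The deposited signal values are normalized read counts, that is, reads of a gene over its library's size factor. The tools in the submitters' processing notes are HISAT2, HTSeq, DESeq2 and FastQC, and the builds mm9 and hg19. For versions, annotation release and strand setting, the sources used here give nothing. All values were whole multiples of 1 read within 0.01 of a read.

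Values were tested as log2(value + 1) with limma 3.58.1 (trend, robust) in R 4.3.3, on group alone, for 17200 genes with at least 1 in 3 or more libraries, with Benjamini-Hochberg adjustment over all of them, called under 0.05. The test planned for raw counts was run instead as an alternative on the recovered reads, with edgeR 4.0.16 and DESeq2 1.42.0. Fold changes of low genes are understated on this scale. Other alternatives were pseudocount 0.1, filters, scalings, limma without trend, the replicate block and each library left out. The procedure was also run on simulated data in which far fewer genes were changed than were called here. That run does not check the scaling between libraries.

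Symbols matched for 16662 of 17211 identifiers; overlaps and 3′ UTRs are from GENCODE 29 (GRCh38) and promoters from RefSeq (GRCh38.p14). Named genes were, per complex, up to 4 called members with the largest rise and 4 with the largest fall, all of complex II, isoform pairs and catalytic cores, ATP5IF1, and up to 4 called genes by smallest p from each pathway list. Others named for their values were picked after these were seen. The values of 1 member, which stays in the counts, are not reported here. Members and lists were chosen with earlier results of these data known.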

Additional observations from a re-analysis of the deposited data

How the results depend on the processing

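With 3 libraries per group, small differences rest on single libraries. Leaving out each gave 37 to 49 of 80 members called, 27 to 36 lower, 9 to 14 higher, medians of -0.124 to -0.0737, and 1 to 3 ATP synthase genes higher. Over all tested genes it gave about 8760 to 9830 called. Equal totals gave 20 lower in all (complex I 8, complex III 2, complex IV 3, ATP synthase 5), complex III 2 higher, ATP synthase 5 higher and a median of -0.00444. Without a trend, limma gave 22 lower in all (complex I 9, complex IV 3, ATP synthase 5), 5 called in complex IV, 6 in ATP synthase and 1 of these higher. DESeq2 gave 1 ATP synthase gene higher. Same-numbered libraries did not deviate together (r = -0.096, -0.009 and 0.008). With 3 libraries per group this cannot tell whether they were set up together. A replicate block gave 28 members lower and 10 higher, 1 of these higher genes in ATP synthase. Counts over all genes with this block, and without a trend, are not given here. Chosen after seeing the data, the 46 members overlapping no listed gene gave 25 called (7 higher, 18 lower), or 54.35%. The 31 with no named pseudogene gave 18 (3 higher, 15 lower), or 58.06%. The share was 60% of all 80 members and 56.8% of all tested genes. These are smaller sets, so their lower counts are not lost calls. The cause of the shifts between the other settings was not tested. Signs turned only for genes not called: COX4I1 (0.00229 with edgeR, 0.0772 with equal totals, 0.00857 with upper quartile), and with equal totals SDHB (0.00793), ATP5MC3 (0.00382), NDUFV1 (0.0498) and UQCRC1 (0.0665). With each library left out in turn, COX4I1 ranged from -0.0356 to 0.0131, COX6A1 from -0.0134 to 0.0395, NDUFS3 from -0.0186 to 0.037, UQCRC1 from -0.0529 to 0.000616 and NDUFV2 from -0.246 to 0.00404. NDUFV2, NDUFA7 and UQCRHL had few counts, which limits their precision.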
